A study of Homo sapiens with 6 samples.

Results

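The 5-methylcytosine (5mC) regions of A2058 cells in high glucose were set against those in normal glucose. Every listed region on chromosomes 1 to 22 and X was taken, 100220 in high and 91870 in normal glucose, together 192090 of the 593403 regions in the 4 peak lists of the series. A2058 is an established human melanoma line, and in both groups it over-expressed wild-type TET2. One group was grown in high glucose and the other in normal glucose, each for 7 days before collection. The series holds 6 samples, which are 1 5mC, 1 5-hydroxymethylcytosine (5hmC) and 1 input library at each glucose level. Whether the TET2 line was 1 clone or a pool, and how much glucose each medium held, is not given in the sources used here, and a culture without added TET2 was not analysed here.

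5mC is the main modified base of mammalian DNA and sits mostly on cytosines that are followed by guanine (CpG). Most CpGs of a mammalian genome are methylated, except in CpG islands at promoters, and gene bodies and repeats carry much of the mark. TET2 is a dioxygenase that oxidises 5mC to 5hmC, a step towards loss of the methyl group, and melanoma is known for low 5hmC. In MeDIP-seq an antibody against 5mC pulls down single-stranded fragments that carry it, so that DNA dense in methylated CpGs is recovered best. A listed region is therefore a place of enriched fragments and not a methylation level, and an unlisted place is not thereby unmethylated.

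With 1 library at each glucose level there is no replicate check. No p-value across regions is given, regions of 1 library are not replicates, and the 95% intervals cover counting error only, since fragments without molecular identifiers are not independent molecules. The fold and p columns of the authors' lists gave back, for each region, the number of fragments at the summit and the number expected there. The smallest expected count, which is the background level of the library, was 0.737 for high glucose and 0.615 for normal glucose, a ratio of 1.20. The median region had 12 fragments at its summit in high and 11 in normal glucose, and the 10th percentile was 7 in each list. These are low counts.

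More 5mC regions were listed in high glucose on each of the 23 chromosomes. On chromosome 21 the counting interval (0.991 to 1.15) included equal numbers. Intervals of such ratios treat the 2 lists as separate counts, although most regions are in both, so they do not settle equality. Without a partner there were 349 high-glucose and 249 normal-glucose regions on chromosome 21. The ratio over all chromosomes was 1.09 (counting interval 1.08 to 1.10). It was highest on the X chromosome, with 1787 regions against 1456 (1.23, interval 1.15 to 1.32), then on chromosome 6, with 4331 against 3646 (1.19, 1.14 to 1.24), and chromosome 14, with 2644 against 2231 (1.19, 1.12 to 1.25). It was lowest on chromosome 9 (1.06, 1.01 to 1.10), chromosome 20 (1.06, 1.01 to 1.11) and chromosome 16 (1.06, 1.02 to 1.10). The 3 highest chromosomes stood out through their weak regions. When both lists were limited to a -log10 p of 10 or more, the ratio was 1.08 on X, 1.10 on chromosome 6 and 1.08 on chromosome 14, inside the range of the other chromosomes, which ran from 1.05 on chromosome 18 to 1.13 on chromosome 4. The direction itself depended on the background. With both lists held to that limit, the ratio over all chromosomes was 1.10 (1.08 to 1.11) without scaling. When the high-glucose counts were also scaled to the normal-glucose background and rounded, it was 0.961 (0.949 to 0.974).

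**Figure D1:**
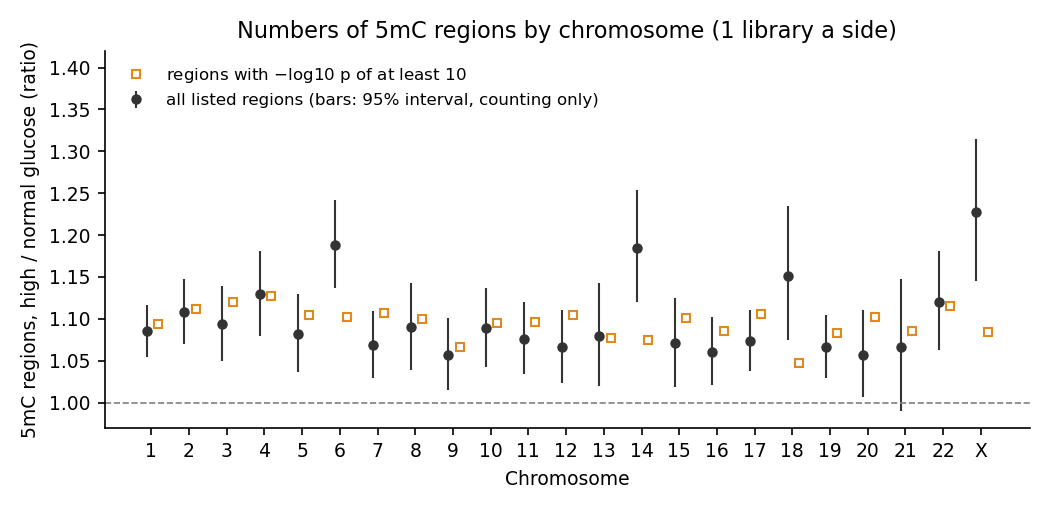
Ratio of the number of 5mC regions, high over normal glucose, by chromosome. Filled circles are all listed regions with their 95% counting interval, open squares are regions with a -log10 p of 10 or more, and the dashed line marks equal numbers. X (1.23), 6 (1.19) and 14 (1.19) lie highest for all regions and at 1.08, 1.10 and 1.08 for the stronger ones.

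Within chromosomes the excess was spread widely. Of 232 windows of 10 Mb that held at least 80 paired regions, 219 had more regions in high glucose, 10 had fewer and 3 had equal numbers, with a median ratio of 1.09. The highest ratio was on the X chromosome from 10000001 to 20000000, with 223 regions against 160 (1.39, interval 1.14 to 1.71). The lowest was on chromosome 3 from 60000001 to 70000000, with 150 against 156 (0.962, interval 0.769 to 1.20), which includes equal numbers.

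The density of 5mC regions differed far more between chromosomes than between glucose levels. Chromosome 19, the most gene-dense human chromosome, had 111.5 regions per Mb in high and 104.5 in normal glucose, and 10.3% and 9.78% of its span lay in regions. Chromosome 17 followed with 83.1 and 77.4 per Mb, and chromosome 22 with 82.3 and 73.5. The X chromosome had the fewest, 11.8 and 9.57 per Mb, with 0.743% and 0.614% of its span covered.

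Most 5mC regions were shared, meaning that they overlapped a region of the other list by at least 1 bp. The shared regions numbered 71877 in high glucose, or 71.7% of that list (Wilson interval 71.4 to 72.0), and 72081 in normal glucose, or 78.5% (78.2 to 78.7). Sequence covered at both levels came to 50.5 Mb, which is 70.7% of the cover in high glucose and 76.2% of that in normal glucose. The lower share in high glucose held on 23 of 23 chromosomes and moved with the length of the lists. With equal numbers of the strongest regions the shares were 75.3% and 75.7%. Sharing was highest on chromosome 19, at 79.0% in high and 84.1% in normal glucose. It was lowest for high glucose on X, at 62.7%, and for normal glucose on chromosome 3, at 73.2%. On X, 667 high-glucose and 324 normal-glucose regions had no partner, a ratio of 2.06, followed by chromosome 14 (1.86) and chromosome 6 (1.803).

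Whether a region had a partner followed the number of fragments at its summit. In high glucose 26.0% of regions with 5 fragments were shared, 51.3% of those with 9, 90.3% of those with 15 and 98.7% of those with 20 to 24. In normal glucose the shares at the same numbers were 42.0%, 68.6%, 95.8% and 99.7%. Normal-glucose regions were thus shared more often at equal fragment numbers in every class, with intervals that overlapped from 25 to 29 fragments on. With fragment numbers that differed by the ratio of the backgrounds, the share was 31.1% at 6 fragments in high against 42.0% at 5 in normal glucose, 74.5% at 12 against 76.5% at 10, and 95.5% at 18 against 95.8% at 15. Of regions with 60 or more fragments, a partner was listed for 3912 of 3913 from high glucose and for 2502 of 2502 from normal glucose.

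**Figure D2:**
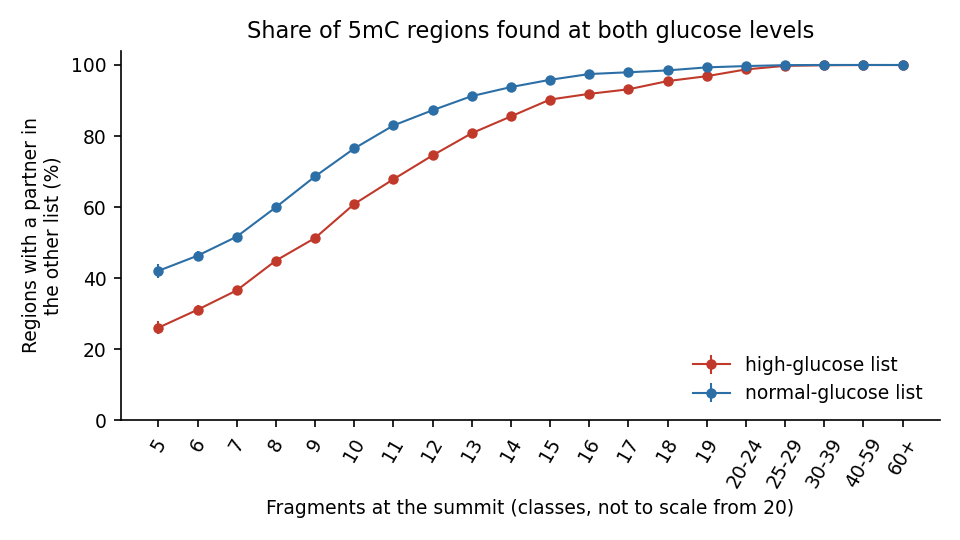
Percent of 5mC regions with a partner at the other glucose level (vertical axis) by the number of fragments at the summit (horizontal axis, single values to 19 and then wider classes). Points are classes of regions of 1 list and bars are Wilson 95% intervals, mostly smaller than the points. The share climbs from 26.0% (high) and 42.0% (normal) at 5 fragments to 98.7% and 99.7% at 20 to 24.

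Regions without a partner were weak and narrow. Their median was 8 fragments in each list, against 15 for shared regions in high and 13 in normal glucose. The median fold was 4.88 against 8.06 in high and 4.95 against 7.66 in normal glucose, and the median width was 368 against 589 bp and 361 against 576 bp. Under 10 fragments were found at 68.5% of the unpartnered and 18.9% of the shared regions in high glucose, and at 79.9% and 27.6% in normal glucose. The nearest region of the other list lay at a median of 4845 bp from an unpartnered region in high and 4280 bp in normal glucose, and within 1000 bp for 16.0% and 17.8% of them. Along the chromosome, the next region was unpartnered after 32.8% of unpartnered and 26.5% of shared regions in high glucose, and after 24.97% and 20.6% in normal glucose.

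On the X chromosome, the unpartnered region with the most fragments in high glucose spanned chrX:71767665-71768156 (hg19), with 30 fragments (exact Poisson interval 20.2 to 42.8). A 5hmC region of high glucose overlapped it, and none of normal glucose did. The next ones were chrX:48673588-48674057, with 18 fragments and a normal-glucose region 1426 bp away, and chrX:123013526-123014193, with 17 fragments. In normal glucose the strongest were chrX:138528937-138529362, with 17 fragments and the nearest high-glucose region 242774 bp away, chrX:45363837-45364233, with 16, and chrX:39798359-39798844, with 13. None of the latter 5 overlapped a 5hmC region. Apart from the first of these, the strongest X regions of 1 glucose level thus rested on 13 to 18 fragments.

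Paired regions, in which 1 region of each list overlapped only the other, allowed a direct comparison of position, width and fold. There were 66974 pairs, which hold 66.8% of the high-glucose and 72.9% of the normal-glucose regions. The other 4903 and 5107 shared regions belonged to groups where a region of one list met several of the other. A region overlapped at least 2 of the other list in 1796 cases in high and 1623 in normal glucose, and at most 4. In high glucose the strongest of those with 4 was chr9:137015911-137020122, 4212 bp wide with 102 fragments. The 4 normal-glucose regions it met were 530 to 5275 bp wide and held 11 to 67 fragments. The next were chr19:1909790-1916097, with 94 fragments, and chr5:282797-287428, with 75. In normal glucose they were chr14:105334712-105341187, with 88 fragments, chr16:2746616-2759342, with 60, and chr13:114200202-114204307, with 43. Such broad tracts were thus divided differently at each level, in both directions.

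In pairs, the point of highest enrichment, the summit, lay at nearly the same place at both glucose levels. Pairs overlap by rule, so the distance between their summits is bounded by their widths, and regions without a partner do not enter. The median distance between paired summits was 48 bp (interval 48 to 49), which is small against the narrowest listed width of 324 bp in high and 325 bp in normal glucose. Summits were within 50 bp in 51.4% of pairs, within 100 bp in 74.5% and within 500 bp in 97.1%. Each summit lay inside the other region in 95.8%. There was no side to the shift: 33291 summits lay further right in high glucose, 33210 further left and 473 at the same base, and the median signed shift was 0 bp. Region starts moved by a median of 3 bp outwards and ends by 4 bp outwards in high glucose, against a median size of 57 bp for either move.

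Summits coincided more closely in stronger pairs. By the mean -log10 p of the pair, the median distance was 134 bp under 5, 65 bp from 5 to 10, 47 bp from 10 to 20, 38 bp from 20 to 40, 33 bp from 40 to 80 and 30 bp from 80 on. By region width the median hardly moved, between 46 and 58 bp, while the distance not exceeded by 90% of pairs went from 144 bp in pairs under 400 bp wide to 1797 bp in those of 4000 bp or more. A wide region can hold several maxima, and the 3 largest shifts were of that kind. On chromosome 16, the high-glucose region chr16:87732990-87747015 and its partner chr16:87733004-87747471 had nearly the same ends, with 102 and 75 fragments, but summits 5087 bp apart. The pairs at chr21:46858429-46865462, with 61 and 58 fragments, and chr1:1557661-1568106, with 87 and 72, had summits 5039 and 4850 bp apart and widths within 107 and 17 bp of each other.

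**Figure D3:**
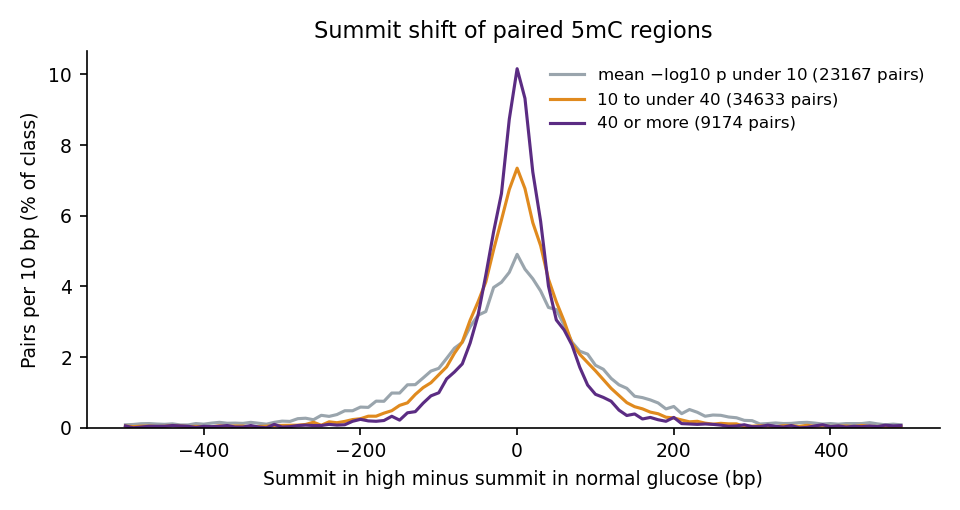
Position of the high-glucose summit minus that of the normal-glucose summit (horizontal axis, bp) in 66974 paired 5mC regions, as percent of pairs per 10 bp (vertical axis), for 3 classes of mean -log10 p. All 3 curves are centred on 0. The peak is highest for the strong class of 9174 pairs and lowest for the weak class of 23167 pairs.

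Paired regions had nearly equal widths. The median width was 575 bp in high and 561 bp in normal glucose, and the median log2 ratio of widths was 0.019 (SD 0.463 over pairs), or 1.01 times. The high-glucose region was wider in 52.7% of pairs, the normal-glucose region in 47.0%, and 236 pairs were equal. A width at least 1.5 times larger was found in high glucose for 9.57% of pairs and in normal glucose for 7.41%. Widths were more alike in strong pairs: the SD of the log2 ratio fell from 0.600 at a mean -log10 p under 5 to 0.216 from 80 on. The median log2 ratio was above 0 on 23 of 23 chromosomes, lowest on chromosome 16 (0.0069) and highest on X (0.049). Over all listed regions the order was the other way, with a median width of 500 bp in high and 507 bp in normal glucose. Widths were not compared at a common background.

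The 3 largest differences in width in each direction were between 1720 and 1923 bp. On chromosome 9, chr9:139718710-139722136 was 3427 bp wide in high glucose with 50 fragments, and its partner 1504 bp with 29. The pair at chr5:133341271-133343661 differed by 1882 bp, with 9 and 6 fragments, and that at chr7:73321042-73323261 by 1836 bp, with 13 and 8. Wider in normal glucose by 1841 bp was the region chr8:142103907-142106100, with 11 fragments against 9 in its partner. The next were chr8:142301839-142304590, wider by 1729 bp with 38 fragments against 45, and chr12:112603982-112607955, wider by 1720 bp with 16 against 19. The last 2 were the narrower in high glucose and held more fragments there as counted. Scaled to the normal-glucose background, their high-glucose counts were 37.5 against 38 and 15.8 against 16.

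Fold enrichment is the authors' ratio of fragments to the expected count with 1 added to each. Over pairs it was slightly higher in high glucose as deposited. Over all listed regions its median was slightly lower in high glucose, 6.58 against 6.70 in normal glucose. The medians over pairs were 8.004 in high and 7.51 in normal glucose. The median log2 ratio was 0.064 (interval 0.061 to 0.065, SD 0.446 over pairs), or 1.05 times, and the fold was higher in high glucose in 55.9% of pairs. Fragments at the summit had medians of 15 and 13, and were more numerous in high glucose in 64.9% of pairs, fewer in 26.6% and equal in 5743. Because 1 is added to counts whose background is below 1, the same enrichment gives a higher fold in a deeper library. With the high-glucose counts brought to the normal-glucose background, the median log2 ratio was -0.060, or 0.959 times, and the fold was higher in normal glucose in 55.6% of pairs. Without the added 1, it was -0.072, or 0.952 times. The median was above 0 on 23 of 23 chromosomes as deposited and below 0 on 23 of 23 at the common background. The direction of the median difference in 5mC fold over all pairs was thus set by the scale. The median also moved with the mean -log10 p of the pair. As deposited it ran from -0.021 under 5 to 0.101 from 80 on. At the common background it ran from -0.113 to -0.030.

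**Figure D4:**
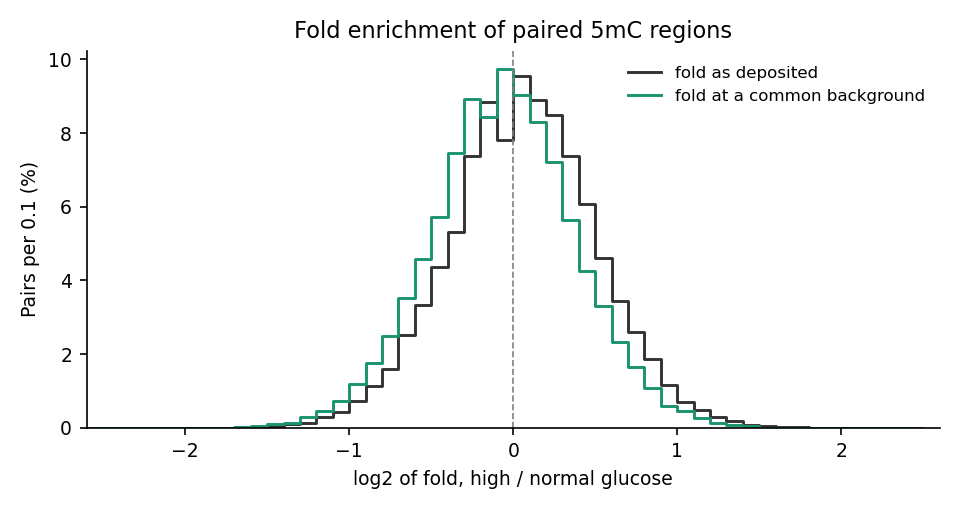
Distribution of the log2 ratio of fold enrichment, high over normal glucose (horizontal axis), over 66974 paired 5mC regions, as percent of pairs per 0.1 (vertical axis). The dashed line marks equal folds. The distribution as deposited has its median at 0.064 and the one at a common background at -0.060, with nearly the same spread (SD 0.446 and 0.440).

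Single pairs were counted by a size rule, a fold at least 1.5 times higher in one list. As deposited, 7771 pairs (11.6%) were higher by this rule in high glucose and 5005 (7.47%) in normal glucose. At the common background the balance turned, with 4735 (7.07%) and 7596 (11.3%). The pairs higher in high glucose as deposited had medians of 18 and 10 fragments with expected counts of 0.852 and 0.851. Those higher in normal glucose had medians of 10 and 15 fragments, and expected counts of 1.10 and 0.698. Their expected count was a median of 1.39 times higher in high glucose, against 1.20 times for the background. For the pairs higher in high glucose it was 1.08 times. The fold rule picks pairs partly by the expected count, so these ratios follow from the rule and are not a separate trait. By chromosome the share higher in high glucose ran from 9.24% on chromosome 13 to 14.2% on chromosome 21. The share rose and fell with strength. It was 2.56% under a mean -log10 p of 5, 15.4% from 10 to 20 and 4.87% from 80 on for high glucose, and 5.62%, 9.66% and 1.75% for normal glucose. Strength and fold were made from the same counts, and both regions of a pair had to be listed. Under 5 the medians were 6 fragments in each list, so the trend is not an independent trait of the pairs. How far the listing limit shaped it was not tested.

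In 50602 pairs the -log10 p reached 10 in 1 or both lists. Among them the fold ratio was largest towards high glucose at chr17:9145524-9146231, where the high-glucose library had 30 fragments (Poisson interval 20.2 to 42.8) and the normal-glucose library 11 (5.49 to 19.7). The fold was 16.5 against 4.37, or 3.78 times, and 3.44 times at the common background. The expected counts there were 0.875 and 1.75. Then came chr20:25669281-25670016, with 20 against 4 fragments (3.72 times), chr3:184328728-184329458, with 19 against 8 (3.51 times), chr9:96320766-96321229, with 24 against 10 (3.498 times), and chr11:1542209-1542954, with 24 against 6 (3.49 times). 5hmC was listed at both levels over the third and the fifth, in high glucose alone over the first and the fourth, and at neither over the pair on chromosome 20.

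Towards normal glucose the largest ratio was at chr18:29408107-29408622, where the normal-glucose library had 24 fragments (15.4 to 35.7) and the high-glucose library 4 (1.09 to 10.2), although the latter was the deeper. The fold was 15.5 against 2.88, or 5.38 times, and 5.77 times at the common background. The expected count was at the background of each library, and no 5hmC region overlapped the pair. It was followed by chr15:89533265-89533809, with 24 against 8 fragments (3.90 times), chr3:33433086-33433653, with 21 against 11 (3.82 times), chr11:61614866-61615832, with 18 against 6 (3.72 times), and chr19:13996577-13997175, with 23 against 7 (3.55 times). At the pair on chromosome 3 the expected counts were 2.74 in high and 0.794 in normal glucose. 5hmC was listed at both levels over that pair, only in normal glucose over those on chromosomes 15 and 11, and at neither over that on chromosome 19. Of all pairs, 4.32% met 5hmC only in high and 10.6% only in normal glucose. Whether the pairs named for their fold ratio differ from these shares was not tested. The largest ratios in either direction came from summits with 4 to 11 fragments in the lower library. The summits of the pair on chromosome 18 were 387 bp apart. Those of the pairs at chr11:61614866-61615832 and chr11:1542209-1542954 were 526 and 455 bp apart, so the counts compared there come from different positions. In the other pairs named for their fold ratio the summits were 22 to 149 bp apart.

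After scaling to the common background, the exact Poisson intervals of the fragment counts were apart in 42 pairs, a check chosen after the values were seen. Intervals that overlap do not show that a pair is equal, and how many pairs would be apart without any change was not tested. Of all pairs, 12 (0.0179%) had more fragments for the background in high and 30 (0.0448%) in normal glucose, and the intervals overlapped in the other 99.94%. The 12 lay on 7 chromosomes and their ratios ran from 1.75 to 3.47. The largest was at chr17:43047462-43049270, with 25 fragments in high and 6 in normal glucose. The best covered were 2 neighbours on the same chromosome. They were chr17:76986038-76988567, with 88 fragments against 42 and a fold of 31.5 against 14.7, and chr17:77019729-77021526, with 63 against 27 and a fold of 28.1 against 14.8. The 30 lay on 15 chromosomes with ratios from 1.60 to 7.19 towards normal glucose, led by the pair on chromosome 18 named above. The best covered of them were chr2:25353995-25355049, with 92 fragments in normal and 69 in high glucose, and chr5:1483176-1485210, with 66 against 43. 5hmC was listed at both levels over 5 of the 12 and 7 of the 30, and at neither over 4 and 14. Over all pairs the shares were 32.4% at both levels and 52.7% at neither, and numbers this small do not tell the groups from these shares.

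The 5 strongest pairs were ranked by the -log10 p in the weaker of their lists, which selects regions strong at both levels. The first lay at chr20:43932652-43933867, with 223 fragments in high and 217 in normal glucose, folds of 106 and 102 and summits 17 bp apart. The other 4 of the top 5 began at chr17:41399582-41401236, with 374 and 362 fragments, chr19:19624320-19626593, with 217 and 178, chr19:14273195-14274587, with 214 and 191, and chr7:156733385-156736151, with 161 and 151. 5hmC was listed at both levels over all 5. Among shared regions with 30 or more fragments, 72.8% in high and 74.6% in normal glucose met 5hmC in at least 1 list. In all 5 pairs the summits were 10 to 65 bp apart, and the high-glucose library had more fragments as counted. At the common background 4 of the 5 had more in normal glucose, all but the first of the pairs on chromosome 19, with 181 against 178. The second pair on chromosome 19 had a fold of 101.2 in high and 74.7 in normal glucose, or 1.36 times. The pair on chromosome 17 had a fold of 19.5 in high and 30.3 in normal glucose at nearly equal fragments. Its expected counts were 18.3 and 10.996, far above the background of either library.

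Neighbouring 5mC summits lay a median of 6591 bp apart in high glucose (interval 6514 to 6674) and 6847 bp in normal glucose (6759 to 6932). The spread was wide, with the middle of the distances between 2727 and 19566 bp in high and between 2793 and 20953 bp in normal glucose (25th and 75th percentiles), and means of 29378 and 32047 bp. Distances under 2000 bp made up 16.5% and 16.0%. Spacing was tighter in high glucose on 21 of 23 chromosomes, all but 4 and 21. The order rested on the number of regions listed: when the high-glucose list was cut to its strongest 91870 regions, its median spacing was 7065 bp, above the 6847 bp of normal glucose. It was tightest on chromosome 19, at 3376 and 3469 bp, on chromosome 16, at 4002 and 4072 bp, and on chromosome 22 in high glucose (4155 bp) and chromosome 17 in normal glucose (4479 bp). It was widest on X, at 13470 and 15683 bp. The largest gap in both lists lay on chromosome 1, where no region was listed between 121485617 and 142634840 in high glucose and between 121485630 and 142634903 in normal glucose.

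**Figure D5:**
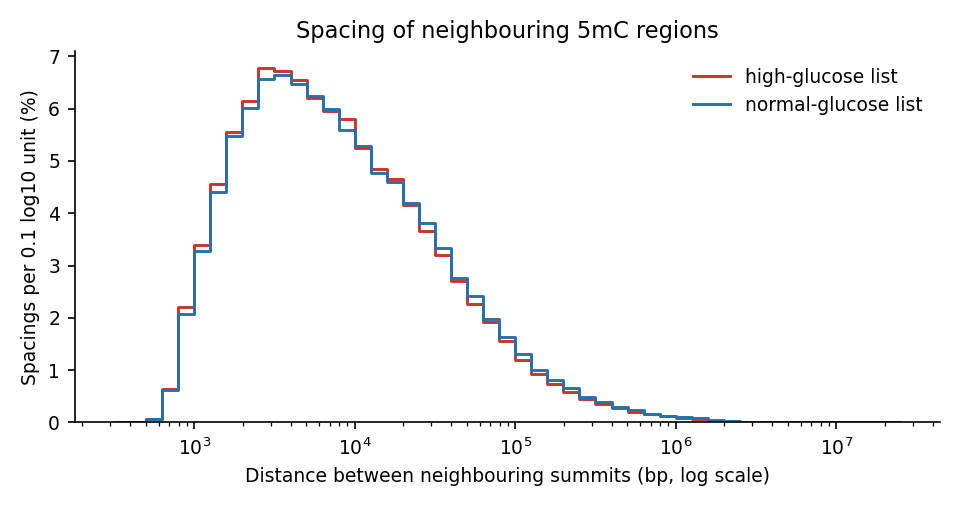
Distance between neighbouring 5mC summits on a log scale (horizontal axis, bp), as percent of spacings per 0.1 log10 unit (vertical axis), for the high- and normal-glucose lists. The 2 curves nearly coincide, with medians of 6591 and 6847 bp.

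Some regions stood in runs, in which each region was under 1000 bp from the next. High glucose had 10721 runs with 25.7% of its regions and normal glucose 9626 with 25.1%. No gap between neighbours was under 301 bp in either list. Regions in runs were shared more often than others, 81.3% against 68.4% in high and 86.5% against 75.7% in normal glucose. The run with the most regions in high glucose spanned chr5:1489643-1514809, with 14 regions of 6 to 91 fragments over 25167 bp, of which 12 were shared. Normal glucose listed 10 regions there and covered 16135 bp, against 16019 bp in high glucose. Next were chr1:2095227-2114980, with 12 regions against 8, and chr20:60880566-60915294, with 11 against 11. In normal glucose the longest runs spanned chr7:150809733-150834091, with 14 regions against 11 in high glucose, chr17:80853057-80890664, with 13 against 10, and chr4:710166-738442, with 11 against 10. In the first run of each list the number of regions differed while the covered length was nearly equal.

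5hmC regions, which the pairing did not use, overlapped shared 5mC regions more often than unpartnered ones. Either 5hmC list met 47.9% of the shared and 25.4% of the unpartnered regions in high glucose, and 47.8% and 28.8% in normal glucose. Shared and unpartnered regions also differed in fragment number and width. Among regions with 9 or 10 fragments the shares were 33.2% and 27.1% in high and 35.9% and 31.5% in normal glucose, where the median widths were 417 and 370 bp and 427 and 381 bp. Averaged within classes of fragment number, an alternative chosen with these values in view, the difference was 6.49 percentage points in high and 3.79 in normal glucose, against 22.5 and 18.9 without classes.

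Of the pairs, 32.4% met 5hmC at both glucose levels, 4.32% in high glucose alone, 10.6% in normal glucose alone and 52.7% at neither. Where 5hmC was listed in high glucose alone, the median log2 ratio of 5mC fold was 0.118, and 15.04% of the 2893 pairs were at least 1.5 times higher in high and 6.29% in normal glucose. Where it was listed in normal glucose alone, the median was 0.024, with 9.82% and 9.41% of 7089 pairs. With 5hmC at both levels the median was 0.068, and at neither 0.064. At the common background the 4 medians were -0.0062, -0.096, -0.052 and -0.060, in the same order. On both scales the median was highest with 5hmC in high glucose alone and lowest with 5hmC in normal glucose alone, but the 4 classes lay on the same side of 0, above it as deposited and below it at the common background. Whether the 5mC and 5hmC regions of a glucose level were called against the same input library is not given in the sources used here, and its part in this was not tested.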

How the data were processed

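MeDIP-seq libraries of 1 high-glucose and 1 normal-glucose culture were compared. Coordinates are on hg19, and the tools in the submitters' processing notes, given there without roles, are Bowtie 1.0.0, CASAVA 1.8.2, bedtools 2.17.0 and SAMtools 0.1.18. Not given in the sources used here are the peak caller, its control and its treatment of duplicates. For each library the authors deposited a narrow-peak list, with a fold enrichment (a ratio), −log10 p and q values, a display score (not used) and a summit offset. The highest deposited q-value was 0.0496 in high and 0.0488 in normal glucose. Peak names inside the lists read Ctrl for high and Low for normal glucose, and the sample titles were followed.

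Peaks on chromosome Y or on mitochondrial DNA, 14 in high and 15 in normal glucose, were left out. Shared regions overlapped by at least 1 bp (Python 3.11.15, pandas 2.3.3, NumPy 2.4.6). The counts from bedtools 2.31.1 were identical. For 100% of regions a whole number of fragments and an expected count were found that give both fold and p-value, as (fragments + 1)/(expected + 1) and a Poisson probability, within 1% of a step. The search was tested on simulated data. Shares carry Wilson intervals, counts exact Poisson intervals and medians order-statistic intervals, all at 95% (SciPy 1.17.1), and figures used Matplotlib 3.10.9. For the common background, high-glucose fragments and expected counts were divided by the ratio of the smallest expected counts, 1.20.

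The regions named are the strongest pairs, the pairs with extreme fold ratio, width difference or summit shift, the regions with most partners, the longest runs, and the strongest unpartnered regions on X. Pairs with intervals apart, and the regions named under other observations, were picked after values were seen. The comparison, its rules and the alternatives were chosen with earlier results of these data known. No hg19 sequence or gene annotation was used here, so regions are given by position, counted from 1.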

Additional observations from a re-analysis of the deposited data

How the results depend on the processing

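For 13 results, 50 alternative values were computed. Of these, 25 stayed within the counting interval of the reported value, 20 moved outside it and 5 changed direction. The differences between shares, of pairs and of regions with 5hmC, carry no counting interval, so their alternatives could not count as staying. The changes of direction came with matched background (3 values) or without the 1 added to each count (2 values). The ratio of region numbers was 0.961 with matched background at a -log10 p of at least 10, against 1.10 at that limit without scaling. The median log2 fold ratio was -0.060 with matched background and -0.072 without the added 1. On these 2 scales the share of pairs 1.5 times higher in high minus that in normal glucose was -4.27 and -5.59 percentage points, against 4.13 as deposited. The shares themselves were 7.07% and 11.3% with matched background and 12.2% and 17.8% without the added 1. With a -log10 p of at least 10 in both lists, 75.2% of high-glucose and 82.5% of normal-glucose regions were shared, the summit shift was 39 bp, the log2 ratios of width and fold were 0.0164 and 0.0666, and the spacings 10072 and 10651 bp. With overlap of 50% of both regions, the shares were 62.5% and 68.2%, the shift 46 bp and the log2 width ratio 0.0164. With equal numbers of top regions, the shares were 75.3% and 75.7%, and the high-glucose spacing 7065 bp. Within fragment classes the 5hmC differences were 6.49 and 3.79 points. The values for autosomes only, rows within 500 bp merged, mutually nearest summits and a -log10 q of at least 2 all stayed within those intervals. No paired analysis was possible because each glucose level has 1 library, and for the same reason no replicate could be left out. Values at weak regions rest on few fragments: of regions with 5 at the summit, 26.0% in high and 42.0% in normal glucose were found in both lists, and the cause was not tested.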

Other observations

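A few 5mC regions had expected counts far above the background, and they were looked at after their values were seen. At least 5 times the smallest expected count was found at 61 regions in high and 51 in normal glucose. The highest were the same places in both lists. At chr6:58778458-58779358 (hg19) the high-glucose library had 281 fragments where 85.3 were expected, and the overlapping normal-glucose region had 288 where 77.5 were expected, for folds of 3.27 and 3.68. At chr1:121484232-121485617 the counts were 308 and 267, with 84.3 and 80.5 expected and folds of 3.62 and 3.29. Next to the first, chr6:58777147-58777666 had 98 fragments in high and 103 in its partner in normal glucose, with folds of only 1.39 and 1.59. At these places a very low fold stood beside some of the highest fragment counts of the lists.

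The same kind of place made up most of the strong regions without a partner. With 30 or more fragments at the summit, 7 high-glucose and 0 normal-glucose regions had no partner, and 6 of the 7 had expected counts between 9.31 and 39.98. The one with most fragments was chr7:61969056-61969546, with 60 fragments, an expected count of 39.98 and a fold of 1.49. Then came chr10:42395881-42396444, with 53 fragments and a fold of 2.09, and chr5:71146501-71146829, with 38 and 2.76. The exception was chrX:71767665-71768156, with 30 fragments at an expected count of 0.737 and a fold of 17.8. No 5hmC region overlapped the 6 others in either list.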
